A study of Mus musculus with 6 samples.

Results

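TRBV2, TRBV3 and TRBV4 are 3 neighbouring variable (V) genes of the mouse T cell receptor β chain (TCR-β) locus. They lie in the upstream part of the array of V genes. Their members were all rows of the 6 deposited repertoires that name TRBV2, TRBV3 or TRBV4 and carry no stop (*) or frame (.) mark in complementarity-determining region 3 (CDR3). Such unmarked sequences are called productive. The 3 genes, of 23 TRBV genes seen, held 48444 of 496196 productive reads, or 9.76%, and 21982 of 198807 productive clonotypes. A clonotype is a TRBV gene, a TRBJ gene and a CDR3 amino acid sequence within a library.

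The libraries were made from total RNA of C57BL/6 mice that bore MO4 tumors, a B16F10 melanoma line engineered to express ovalbumin. On day 0, 100000 tumor cells were placed under the skin of each hindlimb. Cells that the labels call IFN-α-iPSC-pMCs were injected next to the right tumor 5 times, first on day 5, then on days 6 and 7, and again on days 12 and 13, with 1000000 cells per injection, and RNA was taken on day 14. The groups were the treated tumor (right hindlimb), the distant tumor (left hindlimb) and the spleen, with 2 libraries each. The series describes 2 mice, and libraries with the same number were taken to come from the same mouse. All 3 groups therefore come from animals that carried 2 tumors and received the injections, and no library from an untreated or tumor-free mouse was analysed here.

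A TCR-β chain is built in the thymus by joining a V gene, a diversity segment and a joining (J) gene. The junction, with bases trimmed and added at random, encodes CDR3, the loop that lies over the peptide in antigen recognition. Cells descended from the same T cell share the rearranged chain, and counting its reads is the usual way to follow a clone between tissues. In bulk RNA, more cells of a clone and more receptor RNA per cell cannot be told apart. An older naming system calls these genes Vβ4 (TRBV2), Vβ16 (TRBV3) and Vβ10 (TRBV4), as listed among the RefSeq synonyms Tcrb-V4, Tcrb-V16 and Tcrb-V10.

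The 3 genes are annotated as TR_V genes on the forward strand of mouse chromosome 6 (GRCm38, GENCODE M21), each with 2 exons. Trbv2 spans 41047340 to 41047995, Trbv3 spans 41048290 to 41048828 and Trbv4 spans 41059394 to 41059886. Only 294 bp separate Trbv2 from Trbv3, and 10565 bp separate Trbv3 from Trbv4. They are the genes at places 2, 3 and 4 of the annotated array and lie 473977 to 485868 bp upstream of Trbj1-1. The last 60 coding bases of each second exon are shown because they encode the start of CDR3, where the 3 genes differ; capitals mark the bases from the conserved cysteine codon onward.
TRBV2 (chr6:41047936-41047995, forward strand): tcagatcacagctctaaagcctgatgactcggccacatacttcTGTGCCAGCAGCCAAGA
TRBV3 (chr6:41048769-41048828, forward strand): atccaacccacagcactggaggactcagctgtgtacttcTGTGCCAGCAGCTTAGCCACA
TRBV4 (chr6:41059827-41059886, forward strand): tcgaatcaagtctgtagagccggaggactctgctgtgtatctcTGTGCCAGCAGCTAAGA
All 3 germline genes encode CASS at the start of CDR3. The codon that follows, codon 5, is CAA for glutamine (Q) in TRBV2 and TTA for leucine (L) in TRBV3. In TRBV4 codon 5 is TAA, a stop codon, so a productive TRBV4 chain needs that codon altered at the junction.

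The libraries held 42320 to 135599 productive reads, of which 4207 to 15048 came from the 3 genes. The labels mention no molecular identifiers. Reads are therefore not independent molecules, and the Wilson 95% intervals and the floors below cover counting error only. With a count of 0 in a library, a share of up to 3 reads remains possible, which is 0.00221% of productive reads in spleen 2 and 0.00709% in distant tumor 2. P-values from edgeR, DESeq2 and the permutation tests reflect only how far these libraries differ from each other, and those of Fisher's exact test cover counting error only. An exact permutation test of 2 libraries against 2 cannot give a p below 0.333, and 4 tumors against 2 spleens cannot go below 0.0667; the 4 tumors moreover come in pairs from the same animals.

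TRBV2 took a larger share of reads in both treated tumors than in both distant tumors. Its share of productive reads was 3.60% in treated tumor 1 (95% interval 3.48% to 3.73%) and 3.70% in treated tumor 2 (3.55% to 3.86%). It was 1.89% in distant tumor 1 (1.80% to 1.99%) and 1.93% in distant tumor 2 (1.80% to 2.07%), and the spleens lay in between at 2.46% and 2.74%. The treated tumors averaged 3.65% ± 0.072 and the distant tumors 1.91% ± 0.0256 (SD, n = 2 each), which is a treated-to-distant ratio of 1.90 for number 1 and 1.92 for number 2. The treated and distant libraries did not overlap, which 21.7% of the 23 TRBV genes also showed in that direction. In edgeR's quasi-likelihood test over all 23 genes the log2 fold change was 0.93 (SE 0.27), with an unadjusted p of 0.0127 and a Benjamini-Hochberg adjusted p of 0.146, so TRBV2 did not pass the threshold of 0.05.

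The size of that change depended on the scaling. The median log2 fold change of all 23 genes was 0.35 between treated and distant tumors, and with TMM normalization TRBV2's own value was 0.67 (adjusted p = 0.393). Over 13 alternative analyses with edgeR or DESeq2 its log2 fold change stayed positive, from 0.41 to 1.01, with adjusted p between 0.119 and 0.440. Its lowest value came with each clonotype counted once. On that basis TRBV2 held 3.495% and 3.38% of clonotypes in treated tumors 1 and 2, against 2.78% and 2.39% in distant tumors 1 and 2. This count is not free of clone size, because it includes variants. A variant differs at 1 residue from a clonotype of the same TRBV gene, TRBJ gene and length with at least 10 times its reads. Variants made up 36.8% and 38.8% of TRBV2 clonotypes in treated tumors 1 and 2, against 26.7% and 17.004% in distant tumors 1 and 2. Whether the difference remains without variants was not tested.

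TRBV3 was the most used of the 3 genes and showed no separation of the groups. It took 4.43% and 4.62% of productive reads in treated tumors 1 and 2, 4.14% and 5.73% in distant tumors 1 and 2, and 4.63% and 5.70% in spleens 1 and 2. Within number 1 the treated tumor was higher than the distant tumor, at a ratio of 1.07, and within number 2 it was lower, at 0.807. The edgeR log2 fold change of treated against distant tumors was -0.12 (SE 0.32, adjusted p = 0.745), and its sign turned without distant tumor 2 (0.13). For tumors against spleens it was -0.13 (adjusted p = 0.954), and it was 0.10 with DESeq2's size factors.

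TRBV4 was the least used of the 3 genes on average and was lower in all 4 tumors than in both spleens. Its share was 1.53% and 2.16% in treated tumors 1 and 2, 0.859% and 2.28% in distant tumors 1 and 2, and 2.92% and 2.66% in spleens 1 and 2. The tumors averaged 1.71% ± 0.654 (SD, n = 4) and the spleens 2.79% ± 0.18 (SD, n = 2), with an exact permutation p of 0.133 (two-sided). Complete separation below the spleens was seen for 17.4% of the 23 genes. The edgeR log2 fold change of tumors against spleens was -0.71 (SE 0.42, adjusted p = 0.400). Without distant tumor 2 it was -1.15 with an adjusted p of 0.0283, so this single library decides the call.

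Between treated and distant tumors TRBV4 had no common direction. The treated-to-distant ratio was 1.78 for number 1 and 0.946 for number 2. The edgeR log2 fold change was 0.23 (SE 0.49, adjusted p = 0.714) and depended on which library was left out. It was -0.31 without distant tumor 1 and 1.10 without distant tumor 2. Its sign also turned without treated tumor 2, and with DESeq2's size factors the log2 fold change was -0.06.

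Over all 23 TRBV genes, 0% passed an adjusted p of 0.05 in edgeR, and 0 of the 3 genes did, in either comparison. At an unadjusted p under 0.05 there were 3 of 23 genes (13%) between treated and distant tumors, of which TRBV2 was 1, and 4 of 23 (17.4%) between tumors and spleens, with none of the 3. DESeq2 called 2 of 23 genes in each comparison, and again none of the 3.

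**Figure D1:**
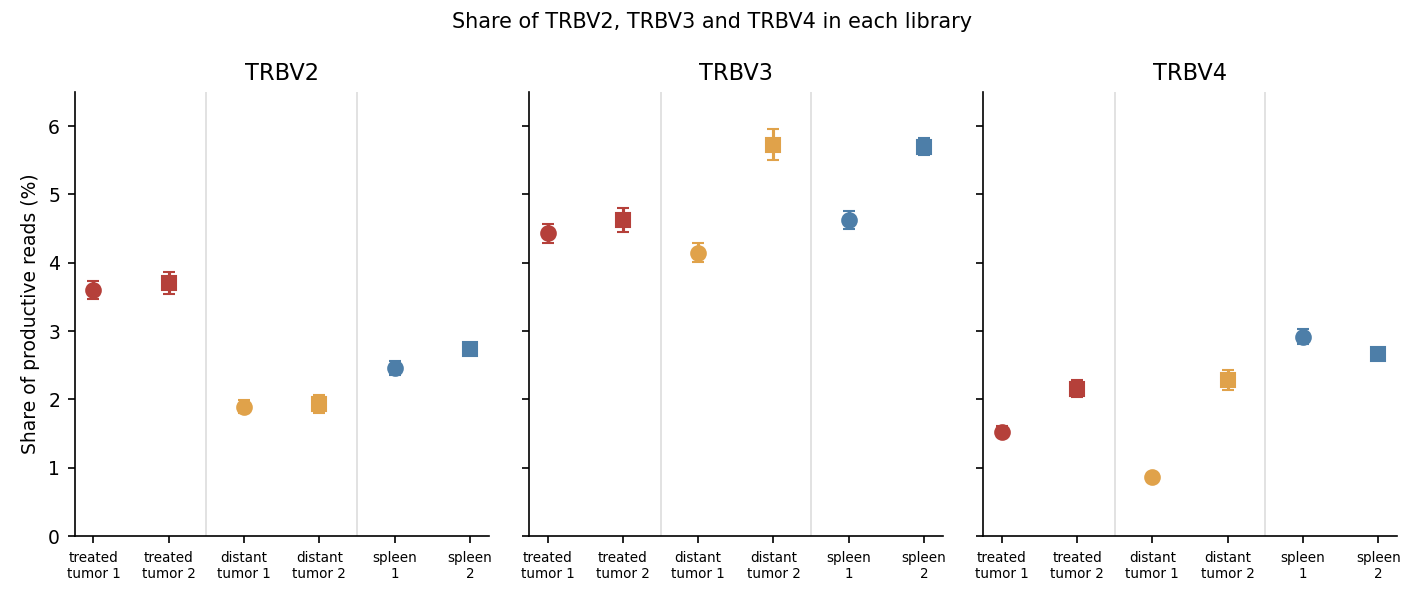
Share of productive reads (vertical axis, %) taken by TRBV2, TRBV3 and TRBV4 in each of the 6 libraries; circles are libraries numbered 1, squares those numbered 2, and bars are Wilson 95% intervals. TRBV2 is at 3.60% and 3.70% in the treated tumors and at 1.89% and 1.93% in the distant tumors, while TRBV4 lies below both spleens in every tumor.

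Together the 3 genes took 9.56% and 10.48% of productive reads in treated tumors 1 and 2, 6.90% and 9.94% in distant tumors 1 and 2, and 10.0% and 11.1% in spleens 1 and 2. Distant tumor 1 was the low library, and the other 5 lay within 9.56% to 11.1%. In distant tumor 1 the largest clonotype of the other TRBV genes held 19.9% of their reads, against 0.271% to 6.54% in the other libraries. Its reads are part of the total behind every share there, including those of TRBV2 and TRBV4 above. How much of the low shares it accounts for was not tested. The difference between treated and distant tumors was 1.604 percentage points (exact permutation p = 0.667, two-sided), and it was 0.0822 without distant tumor 1. The difference between tumors and spleens was -1.33 percentage points (exact permutation p = 0.4). Counted by clonotypes, the 3 genes took 10.2% to 11.7% of every library, with means of 11.02% in tumors and 10.9987% in spleens (difference 0.0242 percentage points).

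TRBV3 exceeded TRBV2 in 6 of 6 libraries by 2.15 percentage points on average (SD 1.15), and it exceeded TRBV4 in 6 of 6 by 2.81 (SD 0.636). An exact sign-flip permutation test over the 6 libraries gave p = 0.03125 for each, the smallest p it can give, or 0.0469 after adjustment over the 3 pairs. The test takes the 6 libraries as independent although they are taken to come from 2 mice, so these p-values are too small. TRBV2 exceeded TRBV4 in 4 of 6 libraries (exact permutation p = 0.219), so these neighbours in the order did not differ beyond their spread. Among the 23 genes TRBV3 ranked 6 to 12 by reads, TRBV2 ranked 11 to 18 and TRBV4 ranked 14 to 19.

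The genes of most similar profile included a neighbour as well as genes farther along the chromosome. Whether likeness followed distance was not tested. Pearson's correlation of log2 shares over the 6 libraries is given as a description, since the libraries come from 2 mice and shares of a whole are tied to each other. TRBV2 was most like TRBV14 (0.87), TRBV19 (0.62) and TRBV13-3 (0.60), and its correlation with TRBV3 was -0.18. For TRBV3 the closest genes were TRBV4 (0.67), then TRBV20 (0.60), TRBV21 (0.55) and TRBV13-1 (0.51). For TRBV4 they were TRBV13-3 (0.82), TRBV1 (0.80) and TRBV13-1 (0.79).

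Each of the 3 genes was joined to all 12 TRBJ genes in both spleens, and the spleens' J profiles were nearly the same. The share of a gene's reads that would have to move to turn the J profile of spleen 1 into that of spleen 2 was 4.39% for TRBV2, 6.67% for TRBV3 and 6.97% for TRBV4. Between pairs of tumors it was 25.03% to 50.5% for TRBV2, 26.3% to 44.6% for TRBV3 and 30.2% to 51.1% for TRBV4. Counting every clonotype once left 17.3% to 44.1%, 18.6% to 26.2% and 22.1% to 37.6% between tumors. Variants, as defined above, made up 14.0% to 38.8% of each gene's clonotypes in tumors, so this count is not free of clone size.

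TRBV2 was joined most often to TRBJ2-7, TRBJ2-5 and TRBJ2-4. TRBJ2-7 took 22.5% ± 4.71 of its reads (SD, n = 6) and ranged from 17.4% to 29.5%. TRBJ2-5 ranged from 2.19% to 35.7%, with the highest value in treated tumor 2, where a single clone described below supplied 27.2% of TRBV2 reads. TRBJ2-4 ranged from 4.96% to 15.8%.

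TRBV3 was joined most often to TRBJ2-7 (20.03% ± 4.11, SD, n = 6), TRBJ2-1 (17.5% ± 14.5) and TRBJ2-5 (12.7% ± 3.41). The wide spread of TRBJ2-1 came from distant tumor 1, where it took 46.6% of TRBV3 reads and a single clone 32.7%. In distant tumor 2 the high partner was TRBJ1-4, with 25% of TRBV3 reads against 2.26% to 6.16% elsewhere, and there a single clone made up 19.0%.

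TRBV4 differed in that TRBJ2-3 led on average, at 27.0% ± 20.5 of its reads (SD, n = 6), ahead of TRBJ2-7 (13.8% ± 7.02) and TRBJ2-5 (11.3% ± 6.34). TRBJ2-3 took 60.5% of TRBV4 reads in treated tumor 2 and 43.3% in distant tumor 2. In the tumors numbered 1 it took 17.8% (treated) and 20.8% (distant), and in spleens 1 and 2 it took 8.42% and 11.1%. Within TRBV4 reads all 4 tumors were thus above both spleens. How many other pairs of a TRBV and a TRBJ gene separate in this way was not counted. Within the whole library the groups overlapped. Distant tumor 1, with 147 such reads of 82142, was below spleen 1 (238 of 96907) and spleen 2 (401 of 135599). In both spleens TRBJ2-7 was the leading partner of TRBV4, as it was of TRBV2 and TRBV3.

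The TRBJ genes lie in a TRBJ1 and a TRBJ2 cluster, and every library joined the 3 genes more often to the second. The TRBJ2 cluster took 66.1% and 66.2% of TRBV2 reads in spleens 1 and 2, 71.5% and 71.3% of TRBV3 reads and 73.5% and 73.9% of TRBV4 reads. Tumors ranged more widely, from 52.4% to 85.5% for TRBV2, from 54.3% to 84.5% for TRBV3 and from 62.2% to 82.6% for TRBV4, with values above and below both spleens for each gene.

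**Figure D2:**
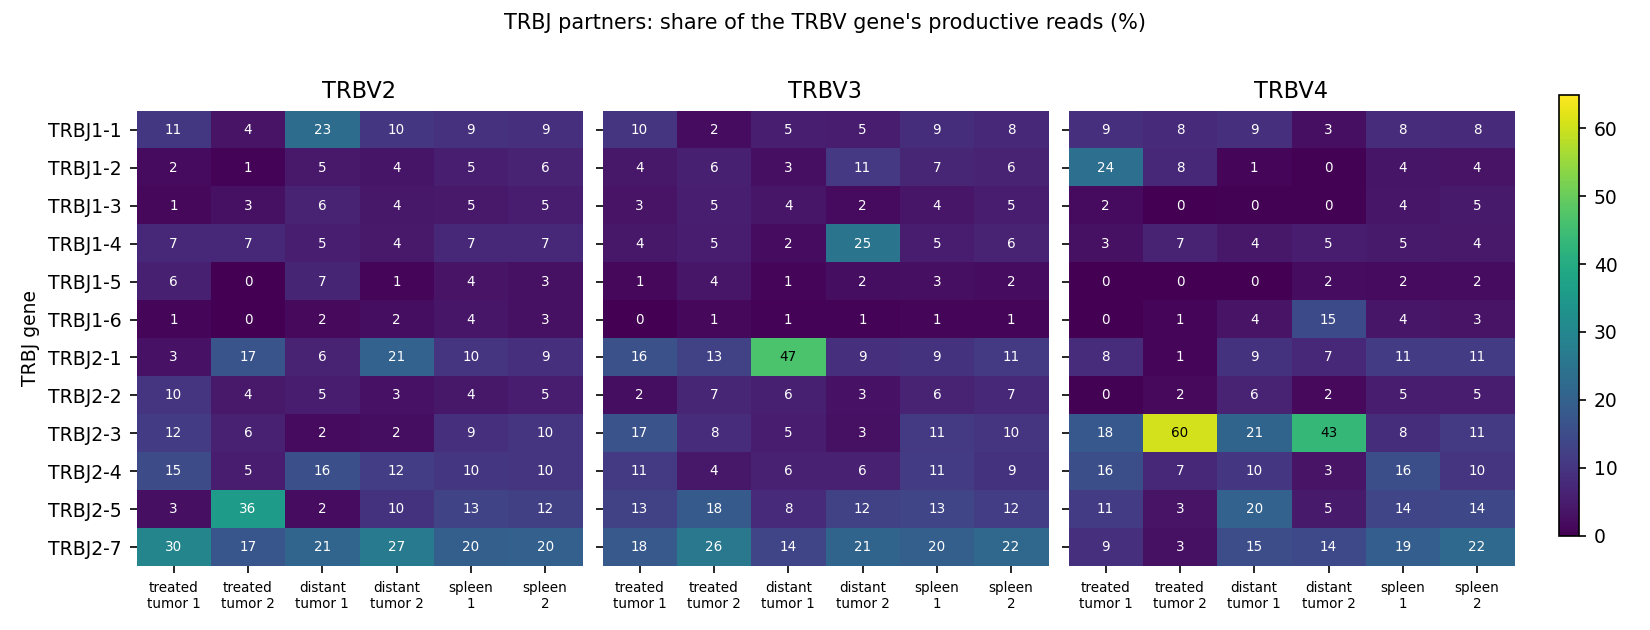
Share of each gene's productive reads (%, colour and printed number) joined to each of the 12 TRBJ genes (rows) in each library (columns). The 2 spleen columns of each panel are alike, whereas tumor columns hold single high cells such as TRBV3 with TRBJ2-1 in distant tumor 1 (46.6%) and TRBV4 with TRBJ2-3 in treated tumor 2 (60.5%).

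As shares of the whole library, 36 pairs of these V genes with TRBJ genes were among 243 pairs tested in edgeR, and 0% of the 243 passed an adjusted p of 0.05 in either comparison. Between treated and distant tumors 4 of the 36 had an unadjusted p under 0.05, 3 higher and 1 lower in the treated tumors, against 18 of 243 (7.41%) overall. The median log2 fold change was 0.24 over the 36 and 0.22 over all 243. Between tumors and spleens 5 of the 36 did, all lower in tumors, against 33 of 243 (13.6%), with medians of -0.62 and -0.56.

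TRBV4 with TRBJ1-2 had the smallest p between treated and distant tumors. It had 301 reads (0.362% of the library) in treated tumor 1 and 92 (0.164%) in treated tumor 2, against 6 (0.0073%) in distant tumor 1 and 3 (0.00709%) in distant tumor 2; the spleens had 104 and 128 reads. In edgeR the treated tumors were higher by 5.16 on the log2 scale (SE 0.98, adjusted p = 0.279), and DESeq2 gave 4.85 with an adjusted p of 7.16e-06. A single clonotype made up 141 of the 301 reads and another 80 of the 92.

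TRBV2 with TRBJ2-3 was the next pair. Treated tumors 1 and 2 held 346 and 125 of its reads, against 28 and 19 for distant tumors 1 and 2, and 206 and 374 for the spleens. The log2 difference in edgeR was 3.02 (SE 0.71, adjusted p = 0.464). DESeq2 gave 2.73 with an adjusted p of 0.00573. The largest clonotype supplied 252 of the 346 reads and 73 of the 125. TRBV3 with TRBJ2-3 had 612 and 211 reads in treated against 165 and 72 in distant tumors (log2 fold change 1.58, SE 0.60, edgeR adjusted p = 0.494). TRBV4 with TRBJ1-6 was the pair that was lower, with 1 and 12 reads in treated against 25 and 142 in distant tumors (log2 fold change -4.04, SE 1.65, edgeR adjusted p = 0.494).

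Between tumors and spleens the 3 pairs with the smallest p were all of TRBV4. With TRBJ2-7 it took 0.567% and 0.591% of the spleens and 0.0642% to 0.328% of the tumors (log2 fold change -1.93, SE 0.57, edgeR adjusted p = 0.246). With TRBJ1-3 the spleens had 112 and 170 reads, treated tumor 1 had 25, and the other 3 tumors had 2 to 4 (log2 fold change -3.56, SE 1.07, edgeR adjusted p = 0.246; DESeq2 adjusted p = 0.0495). With TRBJ2-4 the spleens were at 0.453% and 0.268% and the tumors at 0.078% to 0.238% (log2 fold change -1.49, SE 0.53, edgeR adjusted p = 0.266).

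Within all 3 genes each tumor held fewer and larger clonotypes than either spleen. How many T cells each library sampled is not known here. At an equal depth of 4207 reads of the 3 genes together, the 4 tumors gave 863, 928, 664 and 1207 clonotypes (treated 1, distant 1, treated 2, distant 2) and the spleens 3467 and 3679. The means were 915 ± 224 (SD, n = 4) and 3573 ± 150 (SD, n = 2), which is 3.90-fold more in spleens, with an exact permutation p of 0.0667, the smallest that 4 against 2 can give. The excess was 3.89-fold within TRBV2, 3.82-fold within TRBV3 and 3.69-fold within TRBV4, each measured at that gene's own smallest depth.

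The 10 most abundant clonotypes held 26% to 36.6% of the 3 genes' reads in tumors and 3.04% and 1.45% in spleens (31.5% ± 4.64 against 2.25% ± 1.13, exact permutation p = 0.0667). This was not particular to the 3 genes. For the other TRBV genes together, the 10 most abundant clonotypes held 17.6% to 40.8% of reads in tumors and 1.20% and 1.14% in spleens 1 and 2. In tumors 50% of the 3 genes' reads lay in 22 to 54 clonotypes, and in spleens 1961 and 3065 clonotypes were needed. Treated tumor 2 was the most concentrated for TRBV2 and TRBV4, where 3 clonotypes of each gene held 50% of its reads. Treated and distant tumors did not separate in the top 10 share (31.3% ± 7.49 and 31.6% ± 2.87, exact permutation p = 1). Within TRBV2 that share was 51.3% and 71.8% in the treated tumors and 47.1% and 36.4% in the distant tumors. Among the 100 most abundant clonotypes of a whole library, 7 to 12 belonged to the 3 genes, and the highest placed were a TRBV3 clonotype at rank 5 in distant tumor 1 and a TRBV4 clonotype at rank 5 in spleen 1.

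Some of the tumor clonotypes lay close to a much larger one. A clonotype differing at 1 residue from another of the same TRBV gene, TRBJ gene and length with at least 10 times its reads made up 16.8% to 34.8% of the 3 genes' clonotypes in tumors and 0.264% and 0.992% in spleens. They held 5.33% to 6.09% of reads in tumors and 0.206% and 0.738% in spleens. Whether these are separate cells or copies with errors was not tested. With them merged into the larger clonotype, which was chosen after seeing the data, the equal-depth counts were 657, 742, 441 and 1004 in tumors and 3458 and 3649 in spleens.

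**Figure D3:**
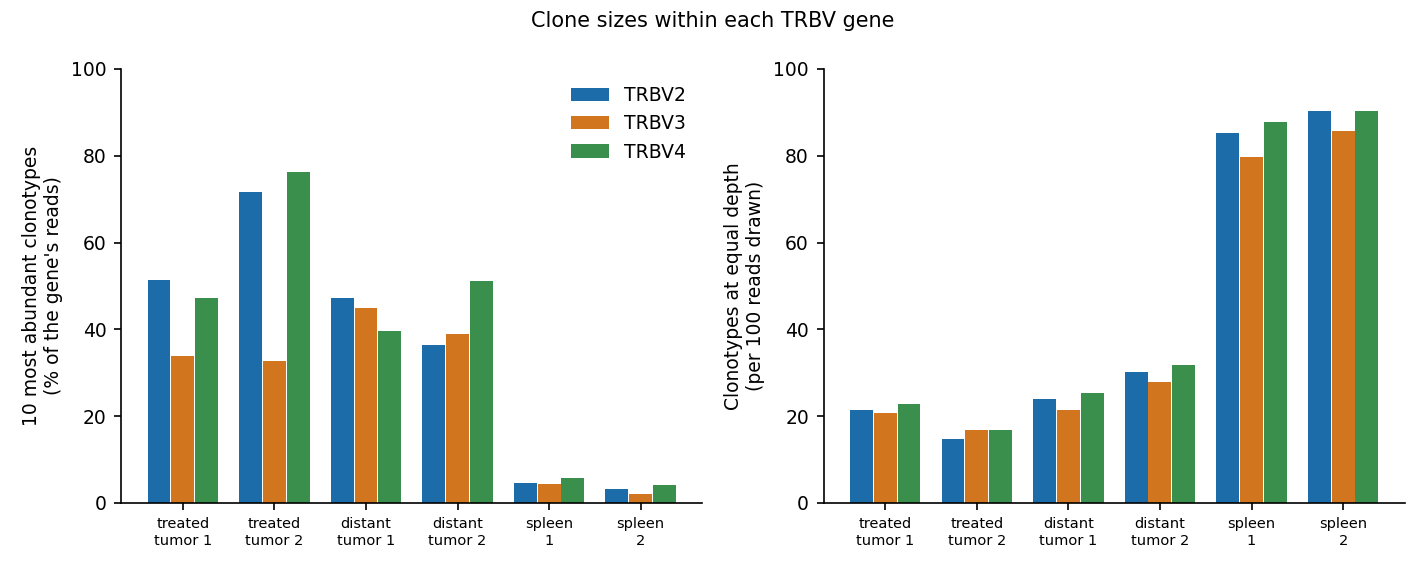
Left, share of each gene's reads held by its 10 most abundant clonotypes (%); right, clonotypes per 100 reads drawn at each gene's equal depth (817 reads for TRBV2, 2424 for TRBV3 and 706 for TRBV4). Each bar is 1 library; in every tumor the left bars are above 30% and in both spleens they are below 6%.

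The largest clonotypes show how far single clones set the shares above. The leading TRBV2 clonotypes that are short enough to print are shown because they are among the largest TRBV2 clones of the tumors.
TRBV2 with TRBJ2-5: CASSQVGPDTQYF
TRBV2 with TRBJ2-7: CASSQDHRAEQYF
TRBV2 with TRBJ2-7: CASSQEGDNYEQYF
TRBV2 with TRBJ1-1: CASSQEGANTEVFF
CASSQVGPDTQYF had 565 reads in treated tumor 2, which is 1.01% of that library and 27.2% of its TRBV2 reads, 5 reads in distant tumor 2 and 0 in the other 4 libraries. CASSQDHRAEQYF had 446 reads in treated tumor 1 (14.9% of TRBV2 reads) and 87 in distant tumor 1, with 0 elsewhere. Both carry the germline-encoded Q at residue 5. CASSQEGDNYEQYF had 255 reads in treated tumor 2, 68 in distant tumor 2 and 13 in treated tumor 1, and 0 in distant tumor 1 and the spleens.

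The direction was not the same for all TRBV2 clones, so the higher TRBV2 share of the treated tumors was not shared by each of them. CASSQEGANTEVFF was higher in the distant tumor, with 232 reads in distant tumor 1 against 91 in treated tumor 1, 1 in spleen 2 and 0 elsewhere. A TRBV2/TRBJ2-3 clonotype of 15 residues had 252 reads in treated tumor 1 and 0 in the other 5 libraries.

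The leading TRBV3 clonotypes are shown because 2 of them set the J profiles of the distant tumors.
TRBV3 with TRBJ2-1: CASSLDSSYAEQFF
TRBV3 with TRBJ1-4: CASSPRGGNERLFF
TRBV3 with TRBJ2-3: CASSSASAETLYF
TRBV3 with TRBJ2-5: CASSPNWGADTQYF
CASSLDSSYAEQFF had 1112 reads in distant tumor 1, or 1.35% of the library and 32.7% of its TRBV3 reads, and 86 reads in treated tumor 1. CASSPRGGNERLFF had 461 reads in distant tumor 2, 19.0% of its TRBV3 reads, and 0 in every other library. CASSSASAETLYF had 209 reads, all in treated tumor 1, and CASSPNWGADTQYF had 179, all in treated tumor 2. A TRBV3/TRBJ2-4 clonotype of 16 residues led both treated tumor 1 (210 reads) and spleen 1 (69 reads) and had 88 reads in distant tumor 1 but 0 in all libraries numbered 2.

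The leading TRBV4 clonotypes are shown because they hold many of the TRBJ2-3 and TRBJ1-2 reads of TRBV4 in tumors.
TRBV4 with TRBJ2-3: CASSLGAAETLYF
TRBV4 with TRBJ2-3: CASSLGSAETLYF
TRBV4 with TRBJ2-3: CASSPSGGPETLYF
TRBV4 with TRBJ1-2: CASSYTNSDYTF
TRBV4 with TRBJ1-2: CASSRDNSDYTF
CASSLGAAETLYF had 368 reads in treated tumor 2 (30.4% of its TRBV4 reads), 53 in distant tumor 2 and 4 in spleen 2. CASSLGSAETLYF, which differs from it at residue 7 only, had 220 reads in distant tumor 2 (22.8%) and 45 in spleen 2, and 0 in treated tumor 2. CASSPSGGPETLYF had 173 reads in treated tumor 2 and 29 in distant tumor 2. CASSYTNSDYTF had 141 reads in treated tumor 1 and 1 in distant tumor 2, and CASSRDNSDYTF had 116 in treated tumor 1 and 1 in spleen 2. In the distant tumors the other leading TRBV4 clonotypes were longer: a TRBJ1-6 clonotype of 15 residues had 101 reads in distant tumor 2 and 7 in treated tumor 2, and in distant tumor 1 a TRBJ2-3 clonotype of 15 residues had 42 reads and a TRBJ2-2 clonotype of 16 residues had 39.

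The spleens' leading clones were of mixed size. A TRBV4/TRBJ2-4 clonotype, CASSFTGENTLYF, had 92 reads in spleen 1, 6 in distant tumor 1 and 2 in treated tumor 1. It had more reads than the leading TRBV4 clonotype of distant tumor 1. For TRBV2 the largest spleen clonotypes were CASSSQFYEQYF with 16 reads in spleen 1 and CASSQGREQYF with 23 in spleen 2. For TRBV3 in spleen 2 it was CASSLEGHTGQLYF with 29 reads.

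Fisher's exact test on reads was used to compare each clonotype between tumors that share a number. It compares 2 libraries, not the conditions, and treats reads as independent molecules, so its p-values are too small where PCR copied the same molecule. In number 1, 255 clonotypes of the 3 genes had at least 10 reads in both libraries together. Of these, 146 were higher on the treated side, 95 were higher on the distant side, and 14 did not pass the threshold, at an adjusted p of 0.05 over all 2257 clonotypes tested. Over all clonotypes 95.7% passed, 54.2% higher in the treated tumor and 41.6% higher in the distant tumor, so the share of the 3 genes' clonotypes higher in the treated tumor (57.3%) was near this background.

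In number 2, of 156 clonotypes tested, 88 were higher on the treated side, 57 on the distant side, and 11 did not pass. Over all 1113 clonotypes 94% passed, with 48.2% higher on the treated and 45.7% on the distant side, against 56.4% higher in the treated tumor for the 3 genes. TRBV2 had 46 higher and 25 lower of 77 in number 1, and 23 higher and 18 lower of 43 in number 2. Most of these clonotypes had reads in only 1 of the tumors: 45 of 255 and 29 of 156 were seen in both. The direction depended on the read minimum. At 5 reads, 197 were higher on the treated and 198 on the distant side in number 1, and 98 and 138 in number 2. Over all clonotypes 45.9% and 30.9% were then higher in the treated tumor, against 46.8% and 38.6% for the 3 genes. At 50 reads the counts were 30 and 5 in number 1, and 25 and 5 in number 2.

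Among clonotypes with reads in both tumors the sizes differed widely. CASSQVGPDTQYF was 85.3-fold higher in treated than in distant tumor 2 (adjusted p = 2.92e-127, Fisher's exact test). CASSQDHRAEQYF was 5.06-fold higher in treated than in distant tumor 1 (8.02e-57). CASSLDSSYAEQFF was 13.1-fold higher in distant than in treated tumor 1 (6.44e-230). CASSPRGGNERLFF, with 0 reads in treated tumor 2, was at least 204-fold higher in distant tumor 2, against a floor of 3 reads in treated tumor 2.

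Other clones had similar sizes on both sides. The TRBV3/TRBJ2-7 clonotype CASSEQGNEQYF had 93 reads in treated tumor 2, 54 in distant tumor 2 and 1 in spleen 2, a 1.30-fold difference (Fisher's exact test with adjusted p = 0.140). The TRBV3/TRBJ2-7 clonotype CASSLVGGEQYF had 48 and 28 reads there and 13 in spleen 2 (1.29-fold, adjusted p = 0.308 in the same test). The TRBV2/TRBJ1-5 clonotype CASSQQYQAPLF had 132 reads in treated tumor 1, 76 in distant tumor 1 and 2 in spleen 1, and its 1.72-fold difference passed (adjusted p = 0.000231).

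**Figure D4:**
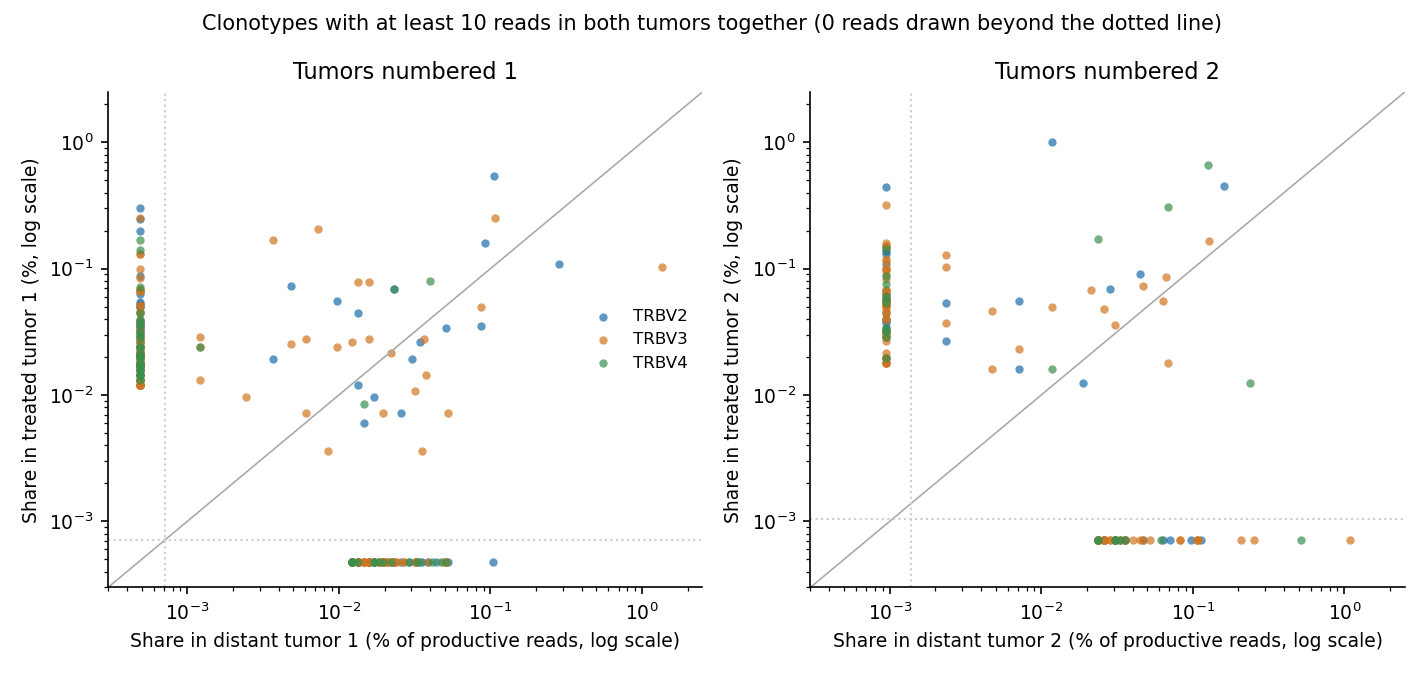
Share of productive reads of each TRBV2, TRBV3 and TRBV4 clonotype in the distant (horizontal) and treated (vertical) tumor of the same number, both on log scales; the diagonal marks equal shares. Clonotypes with 0 reads in a tumor are drawn beyond the dotted lines, and they are the majority: reads in both tumors were seen for 45 of 255 clonotypes in number 1 and for 29 of 156 in number 2.

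Among the tumors, more clonotypes of the 3 genes were shared within a number than across numbers. Treated and distant tumor 1 shared 59 clonotypes, which held 27.9% and 40.8% of the 3 genes' reads in those libraries, and treated and distant tumor 2 shared 40, which held 37.6% and 12.8%. Tumors of different numbers shared 7 to 18. At an equal depth of 4207 reads the expected numbers were 51.5 and 37.9 within a number and 5.78 to 15.8 across numbers. For the other TRBV genes, clonotypes shared by these tumors held 40.7% and 46.0% of reads in number 1 and 44.0% and 30.6% in number 2. Of the 10 leading clonotypes of the 3 genes, in number 1 the distant tumor held 5 of those of the treated tumor and the treated tumor 8 of those of the distant one. In number 2 these counts were 6 and 4.

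The pair with the most shared clonotypes was that of the spleens, which have different numbers: they shared 555 clonotypes of the 3 genes, of which 352 were of TRBV3, and 137 were expected at the equal depth. Tumors shared 47 to 175 with the spleen of their own number and 24 to 62 with the other spleen. Treated tumor 1 shared 58 with spleen 1 and 62 with spleen 2, which had more reads of the 3 genes (15048 against 9693). At the equal depth 33.0 were expected with spleen 1 and 21.7 with spleen 2. Of 20892 distinct clonotypes, 95.4% were in 1 library only and 3 were in all 6. The 3 in all libraries are short and are shown because they are the only ones found everywhere.
TRBV2 with TRBJ1-1: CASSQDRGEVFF
TRBV3 with TRBJ2-5: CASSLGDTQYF
TRBV3 with TRBJ2-7: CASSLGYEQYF
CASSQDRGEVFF had 37 reads in treated tumor 1, 51 in treated tumor 2, 11 and 19 in the distant tumors, and 8 and 12 in the spleens. In both numbers the treated side was higher, 3.32-fold and 2.03-fold (adjusted p = 0.000302 and 0.00817, Fisher's exact test). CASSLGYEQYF had 171 reads in treated tumor 1 and 38 in treated tumor 2, against 6 and 9 in the distant tumors and 9 and 10 in the spleens, and was 28.1-fold and 3.19-fold higher in treated tumors (adjusted p = 2.10e-41 and 0.0011). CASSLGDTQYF had 12 and 41 reads in treated, 31 and 20 in distant tumors and 7 and 10 in spleens; it was 2.62-fold higher in the distant tumor in number 1 (adjusted p = 0.00371) and 1.55-fold higher in the treated tumor in number 2 (adjusted p = 0.127). Since a short CDR3 can arise in many cells, the same amino acids need not mean the same clone.

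At residue 5 the productive clonotypes carried the germline difference between the genes. Q was there in 66.7% ± 4.04 (SD, n = 6) of TRBV2 clonotypes, with a range of 62.4% to 72.1%. L was there in 38.3% ± 4.92 of TRBV3 clonotypes, from 31.9% to 43.5%. TRBV4, whose codon 5 is a stop, had no clear leading residue on average: proline was in 14.98% ± 3.99 of its clonotypes, leucine in 14.3% ± 7.02, serine in 13.8% ± 2.11, tyrosine in 11.7% ± 1.65 and arginine in 10.6% ± 3.81. Leucine led in treated and distant tumor 2, at 22.5% and 23.7% of TRBV4 clonotypes, and was at 6.74% to 11.8% in the other libraries. With each clonotype counted once, mean CDR3 lengths per library were 14.0 to 14.4 residues for TRBV2, 13.8 to 14.0 for TRBV3 and 13.4 to 13.9 for TRBV4. By this count TRBV2 was longer on average than TRBV4 in every library. Weighted by reads the order was the opposite in distant tumor 1, at 13.90 residues for TRBV2 and 13.96 for TRBV4. In spleens 1 and 2, 51.2% and 49.8% of TRBV2 clonotypes had 14 residues or fewer, against 73.1% and 72.9% of TRBV4 clonotypes.

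TRBV4 also had the most reads with a stop or frame mark, a comparison chosen after its values were seen. Marked reads were 13.0% and 9.02% of all TRBV4 reads in treated tumors 1 and 2, 14.8% and 7.82% in distant tumors 1 and 2, and 12.5% and 13.6% in spleens 1 and 2. For TRBV2 the range was 2.12% to 7.36% and for TRBV3 3.86% to 5.78%. TRBV4 exceeded each of them in 6 of 6 libraries (means 11.8%, 5.11% and 4.63%), which is given as a description. It ranked 1 to 5 among the 20 TRBV genes with at least 100 reads in a library.

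The position of the stop matched the germline codon in part of these reads. Of 1489 marked TRBV4 reads, 402 had a stop at residue 5, against 23 of 1251 for TRBV3 and 3 of 817 for TRBV2. Without those reads 6.94% to 10.8% of TRBV4 reads were still marked.

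**Figure D5:**
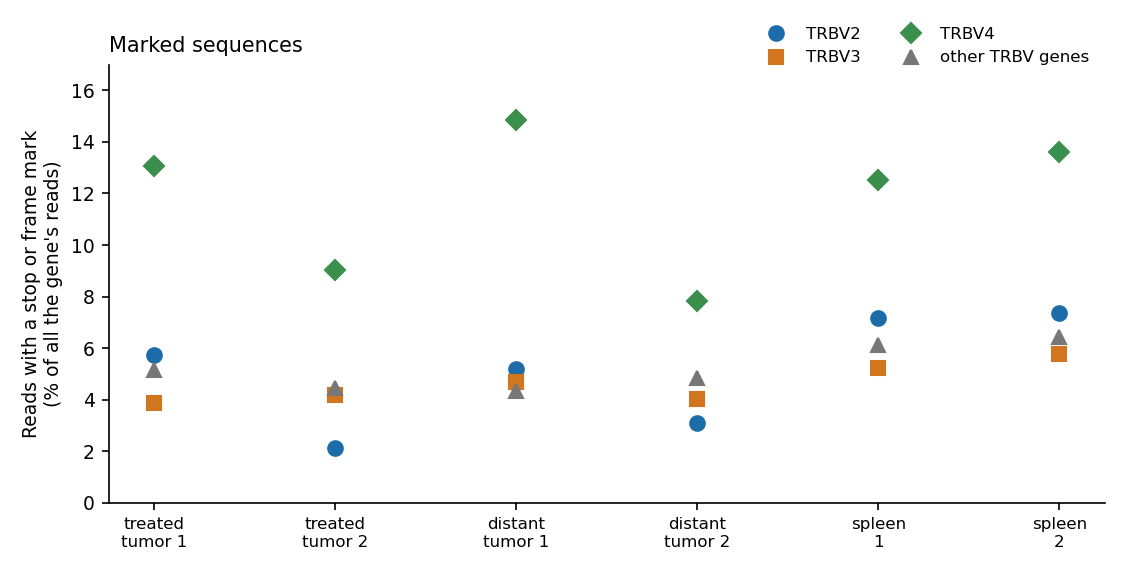
Reads with a stop or frame mark in CDR3 as a share of all reads of the gene (vertical axis, %) in each library, for TRBV2, TRBV3, TRBV4 and the other 20 TRBV genes pooled. TRBV4 lies between 7.82% and 14.8% and is the highest symbol in all 6 libraries.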

How the data were processed

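Per the file headers, each row gives the TRBV and TRBJ genes and the CDR3 amino acids with reads and percent. Counts were used as deposited, in whole reads. The deposited percent values match reads divided by productive reads to within 0.00499 percentage points, and shares were computed here on that total. Per the labels' protocols, adaptor-ligated cDNA was amplified with constant region primers and read from both ends (300 bp) on a MiSeq. The aligner, germline reference, V and J assignment and error correction were not given in the sources used here.

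The genes and lists were chosen with earlier results of these data known. TRBV and TRBV-TRBJ counts were tested in edgeR 4.0.16 (quasi-likelihood, library totals, filterByExpr, all 6 libraries in 1 fit, Benjamini-Hochberg over 23 genes or 243 pairs); DESeq2 1.42.0, TMM, no filter, clonotypes counted once, without clonotypes of 1 read, without the 10 most abundant clonotypes, a replicate block and leaving out each library were alternatives. The edgeR step was tested on simulated data with library totals kept fixed. Shares, richness (hypergeometric rarefaction) and the top 10 share used exact permutation tests, and clonotypes Fisher's exact test, in scipy 1.17.1 on Python 3.11.15.

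Named were the 3 genes, the 3 other TRBV genes most correlated with each, the 3 most used TRBJ partners, the 3 pairs with the smallest p per comparison, the 2 largest clonotypes per gene and tumor and the largest per spleen, the 5 per number with most reads in the rarer tumor, and those in all libraries. CDR3s above 14 residues are described by genes and length. The same-number pairing comes from the titles and the series' 2 mice; deviations of same-numbered libraries over 22 genes correlated at 0.30 (treated, distant), 0.18 (treated, spleen) and 0.06 (distant, spleen). Gene positions and sequences are from GENCODE M21 (GRCm38); the files' 23 TRBV names all matched it.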

Additional observations from a re-analysis of the deposited data

How the results depend on the processing

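Recomputed counts of calls, summed shares, richness and top 10 shares were labelled the same 66 times, moved 20 times and turned sign 2 times. For summed shares, richness and top 10 shares the label says nothing about calls, because no exact permutation test here could pass the threshold. The smallest p such a test could give was 0.0667 for 4 tumors against 2 spleens and 0.333 for 2 libraries against 2. Counts of calls have no call of their own. Recomputed fold changes of single genes and pairs were the same 129 times, newly passed the threshold 5 times and turned sign 10 times. The count of TRBV genes passing edgeR's adjusted threshold was 0 in both comparisons. Between treated and distant tumors it was 2 with DESeq2, and 1 with clonotypes counted once and without the 10 most abundant clonotypes. Between tumors and spleens it was 2 with DESeq2, 2 with clonotypes counted once and 1 without the 10 most abundant clonotypes. Leaving out a library gave 0 to 1 and 0 to 2 genes, among them TRBV4 without distant tumor 2. For TRBV-TRBJ pairs DESeq2 called 6 and 4, and leaving out a library gave 0 in the first comparison and 0 to 22 in the second (22 without treated tumor 1, 3 of them of these genes). The cause was not tested. A replicate block that pairs libraries of the same number called 0 genes and 0 pairs and changed no call; TRBV2 was at 0.93 (adjusted p = 0.190) and TRBV4 in tumors against spleens at -0.82 (adjusted p = 0.244).

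The summed share, tumors minus spleens, turned to 0.0242 percentage points with clonotypes counted once and 0.667 without the 10 most abundant clonotypes. None of the single-gene log2 fold changes that turned sign passed a threshold. TRBV3, treated against distant: 0.11 without the 10 most abundant clonotypes, -0.34 to 0.13 leaving out a library. TRBV4, treated against distant: -0.057 with DESeq2, -0.31 to 1.10 leaving out a library, including -0.036 without treated tumor 2. Tumors against spleens, leaving out a library gave -0.051 (without spleen 1) to 0.10 for TRBV2 and -0.27 (without spleen 1) to 0.032 (without spleen 2) for TRBV3. TRBV3 was there at 0.10 with DESeq2, 0.12 with clonotypes counted once and 0.057 without the 10 most abundant clonotypes.

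The count of differing clonotypes followed the read minimum by construction. In numbers 1 and 2 it was 395 and 236 at 5 reads, 35 and 30 at 50 reads, and 31 and 18 with reads required in both tumors. With 2 libraries per group, exact permutation tests of treated against distant tumors could not pass 0.05. Of 20 tumor measures checked for a library standing apart from the other 3, 0 met Dixon's criterion.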

Other observations

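A small group of TRBV4 clonotypes joined to TRBJ2-3 differed from each other at residue 7 of a 13-residue CDR3 and were otherwise the same. This group was chosen after its values were seen. It held 371 reads and 30.7% of TRBV4 reads in treated tumor 2, 275 reads and 28.5% in distant tumor 2, and 49 reads and 1.36% in spleen 2. In spleen 1 it had 2 reads, and in both tumors numbered 1 it had 0. The leading member was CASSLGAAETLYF in treated tumor 2 and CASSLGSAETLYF in distant tumor 2 and spleen 2.

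Clonotypes that did not begin with the germline CASS made up 33.9% to 42.5% of the clonotypes of TRBV2, TRBV3 and TRBV4 in tumors, and 13.8% and 15.8% in spleens 1 and 2. By reads the groups overlapped, at 8.74% to 12.6% in tumors and 10.9% and 12.5% in spleens 1 and 2. Of these clonotypes 93.1% to 95.1% in tumors and 90.7% and 91.1% in spleens had 1 read. By gene, the share of clonotypes without this start was highest for TRBV4 in both spleens, at 17.3% and 19.1%. It was 11.8% and 12.4% for TRBV2 and 12.6% and 15.8% for TRBV3. Clonotypes at 1 residue from a clonotype with at least 10 times the reads were most frequent in treated tumor 2 for each gene, at 38.8% of TRBV2, 34.0% of TRBV3 and 30.8% of TRBV4 clonotypes. In the spleens the highest value was 1.58%, for TRBV3 in spleen 2. The sources of these sequences were not tested.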
